A study of Mus musculus with 4 samples.

Results

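The genes described here were H2-Aa, H2-Ab1, H2-Eb1, Cd74, Ciita, H2-DMa and H2-DMb1, which make and load MHC class II molecules. They were chosen by name, and all 7 were found among the 16798 genes of the count table. H2-Aa and H2-Ab1 encode the α and β chains of mouse I-A, and H2-Eb1 encodes the β chain of I-E. Cd74 is the invariant chain, which fills the peptide groove of new class II molecules and carries them to endosomes. H2-DMa and H2-DMb1 encode H2-M, which exchanges the last fragment of the invariant chain for antigen peptides. Ciita is the transcriptional coactivator on which class II transcription depends. The loaded molecules present peptides to CD4+ T cells. Dendritic cells, B cells and macrophages present antigen this way, and microglia are known to turn on class II genes in inflamed or ageing brain and near amyloid plaques.

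The cells were CD45+ immune cells sorted from the cortex of 18-month-old mice with the APP/PS1 transgenes, which drive amyloid plaque formation. The group called AD was APP/PS1, and the group called ADAM was APP/PS1 Axl-/- Mertk-/-, without the phagocytic TAM receptors Axl and Mertk. Both groups carried the APP/PS1 transgenes, and mice without them were not analysed here. Each group had 2 libraries, AD 1 and AD 2 and ADAM 1 and ADAM 2, and each library pooled 2 cortices. Values for the libraries are always listed in that order below. The labels do not give the promoter of the transgenes. Transcripts were counted as unique molecular identifiers (UMIs) with 10x Genomics 3′ chemistry.

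The 4 libraries held 3241 to 4543 cells and 14963857 to 29831947 UMIs. The authors gave 14628 of 15451 cells a class and 9077 microglia a numbered state, and both labels were used as deposited. Any pair of libraries shared 2 to 6 cell barcodes. Axl checked the labels: microglia had 104 and 67.1 CPM (UMIs of a gene per 1000000 UMIs of the cells summed) in the AD libraries and 5.37 and 7.23 in the ADAM libraries. Mertk did not separate the groups, at 274 and 296 CPM in AD and 246 and 274 in ADAM, so its 3′ tags did not check the labels. Library ADAM 2 stood apart in summed hemoglobin and other erythroid markers, at 4508 CPM in microglia, where no other library passed 0.612 CPM. This library had them at 170230 CPM in microglia state 2, 21.1 in state 0 and 20.6 in state 5, and at 13805 CPM in macrophages. Its microglia also had 903 CPM of neutrophil markers, against 183 to 205 elsewhere. Library AD 1 stood apart in choroid plexus markers, at 674 CPM in microglia against 1.77 to 68.1, and at 59836 CPM in state 2. Library AD 1 held 209 of the 216 cells that the authors marked as microglia and T cell doublets, which have no state and enter no microglia value below.

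Most members lie in the MHC region of chromosome 17 in the mm10 annotation used here (GENCODE vM21). H2-DMa spans 34119541 to 34139101, H2-DMb1 34153072 to 34160230, H2-Ab1 34257689 to 34269419, H2-Aa 34282744 to 34287823 on the minus strand, and H2-Eb1 34305867 to 34316674. Ciita lies on chromosome 16 from 10480059 to 10528418. Class II promoters are known for an X box and a Y box, bound by RFX and NF-Y, to which Ciita is recruited. The 150 bases before the annotated start are shown for H2-Aa and H2-Eb1, which varied most between microglia states, and for the downstream of the 2 listed H2-DMa starts, whose transcript varied least. The sequences come from RefSeq (GRCm38.p6) and run 5′ to 3′ along the gene, from chr17:34287824-34287973 on the minus strand, chr17:34305717-34305866 on the plus strand and chr17:34125368-34125517 on the plus strand. Capitals mark the paired GNAAC, letters of the X box, and GATTGG, letters of the Y box.
H2-Aa: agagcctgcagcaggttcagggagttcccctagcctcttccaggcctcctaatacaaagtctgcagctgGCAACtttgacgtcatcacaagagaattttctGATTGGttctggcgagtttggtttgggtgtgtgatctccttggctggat
H2-Eb1: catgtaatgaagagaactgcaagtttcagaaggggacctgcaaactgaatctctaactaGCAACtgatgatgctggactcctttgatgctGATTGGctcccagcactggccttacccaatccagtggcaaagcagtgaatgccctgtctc
H2-DMa: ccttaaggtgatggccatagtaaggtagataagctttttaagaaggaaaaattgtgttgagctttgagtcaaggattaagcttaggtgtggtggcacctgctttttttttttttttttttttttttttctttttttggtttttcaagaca
In H2-Aa the pair started 81 and 49 bases before the transcript start, a spacing of 32 bases, and in H2-Eb1 it started 91 and 60 bases before, a spacing of 31. The H2-DMb1 promoter had the pair 32 bases apart, though its highest state mean was only 2.47 times its lowest. Whether the pair goes with how much a transcript varied was not tested. Neither listed H2-DMa promoter held it. Both listed H2-DMa stretches lie inside the span of the gene given above, and no other H2-DMa start was searched. Whether another H2-DMa start has the pair was not tested. The motifs were chosen after the sequences had been seen, and were searched on both strands over 300 bases (250 before and 50 after the start), in the order GNAAC then GATTGG, with starts 25 to 45 bases apart. Of 32851 promoters of the same length, 84.8% held GNAAC, 16.1% held GATTGG and 1.17% held the pair. Outside the members, H2-Oa, H2-Ob and H2-Eb2 held the pair and H2-DMb2 did not. A match is only a match of letters.

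Across cell classes, the 3 chain genes and Cd74 were highest in macrophages and B cells, followed by monocytes (plot of levels by class). Microglia came next for H2-Aa, H2-Ab1 and Cd74, and proliferating cells, which overlapped the microglia, for H2-Eb1. In macrophages, H2-Aa was at 4591 and 2894 CPM in AD and at 4188 and 2846 CPM in ADAM. In B cells, which numbered 17 to 39 per library, it was at 3238, 2312, 3542 and 3143 CPM. The 2 classes overlapped, and each lay above all 4 microglia values, which were 1004, 318, 422 and 612 CPM. Monocytes spanned from above to below the microglia, at 2795, 1067, 832 and 98.1 CPM. The mean over libraries in macrophages was 6.16 times that in microglia for H2-Aa, 6.43 times for H2-Ab1, 11.96 times for H2-Eb1 and 5.01 times for Cd74. Levels between classes and states are given as a description with no test, because the authors grouped the cells on the same expression values.

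T and NK cells, which as a rule express little class II in mice, were at 4.75 to 20.5 CPM for H2-Aa, and neutrophils at 0 to 43.1. In T and NK cells, H2-Aa was highest in ADAM 1 and lowest in AD 2. The mean in microglia was 51.0 times the mean in T and NK cells for H2-Aa and 45.1 times for Cd74. Oligodendrocytes numbered 3 to 8 cells per library, and their 33 Cd74 UMIs all came from ADAM 1. Proliferating cells ranged from 63.8 to 1121 CPM for H2-Aa, with ADAM 1 highest.

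The markers of the labelled classes were checked. Microglia had 12654 to 16485 CPM summed over 8 microglia markers, and B cells had 7805 to 20490 CPM over 7 B cell markers. The macrophage class held the 8 markers of brain-border macrophages at 2541 to 4068 CPM, and the 8 microglia markers at 3866 to 7877 CPM. The part of microglial RNA in the macrophage levels was not tested.

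**Figure D1:**
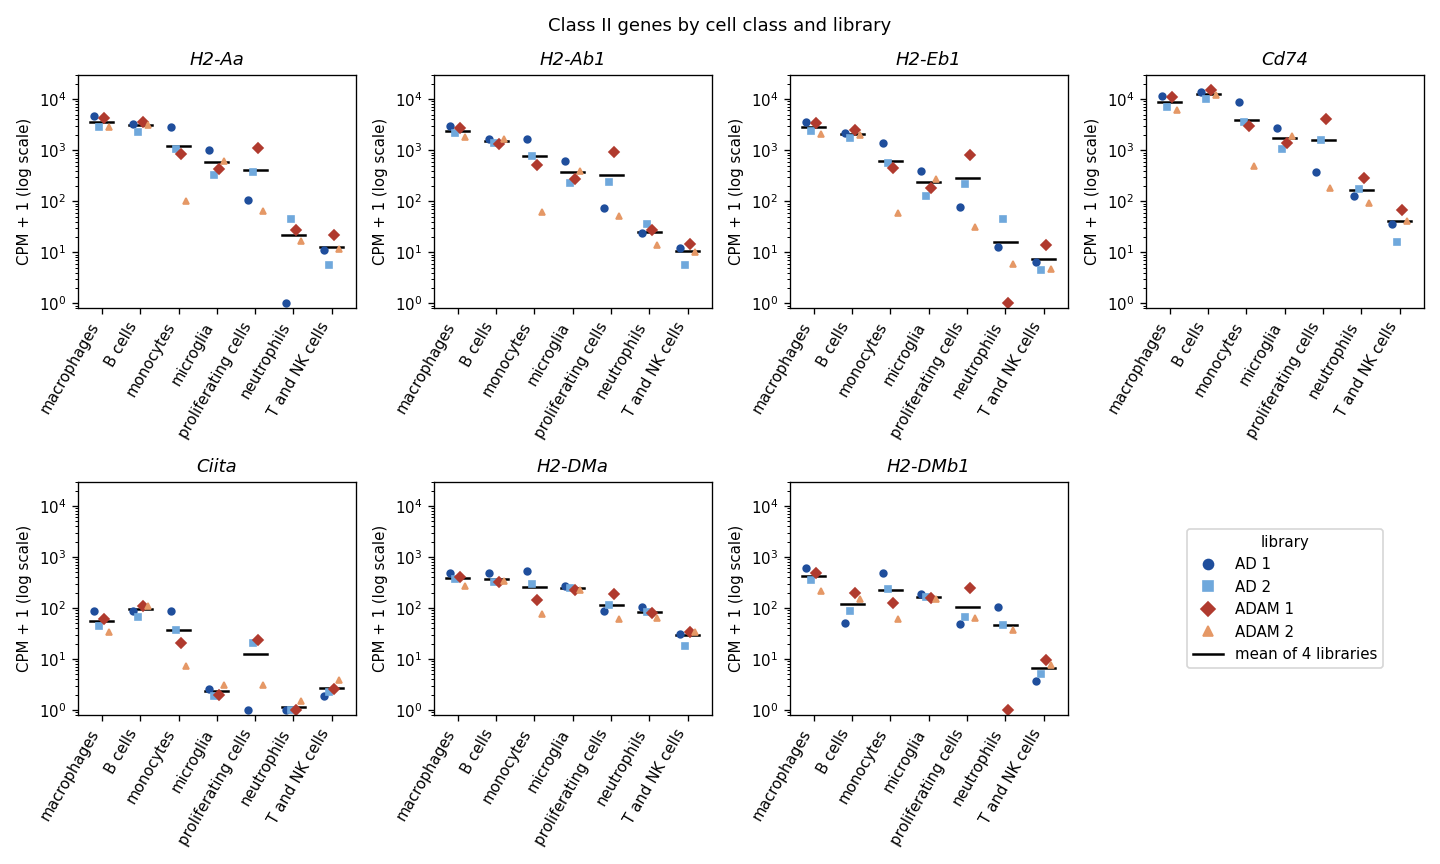
Level of each class II gene (CPM plus 1, log scale) in 7 cell classes, with 1 point per library (n = 2 AD and 2 ADAM) and a bar at the mean of the 4 libraries. The chain genes and Cd74 drop from macrophages and B cells to T and NK cells, Ciita drops to the T and NK level already in microglia, and H2-DMa differs less between macrophages, B cells and microglia.

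Ciita separated macrophages and B cells from microglia by more than the other members did, and did not separate microglia from T and NK cells. In macrophages it was at 88.2, 42.6, 59.4 and 32.4 CPM, and in B cells at 85.0, 67.0, 110 and 110 CPM. In microglia it was at 1.63, 0.921, 1.02 and 2.08 CPM, from 76 UMIs among 9077 cells. The mean in macrophages was 39.4 times that in microglia. Pooled over libraries, microglia had 1.31 CPM (95% exact Poisson interval 1.03 to 1.64), and T and NK cells had 1.63 (0.984 to 2.55). Microglial Ciita was thus not above the level in T and NK cells, while their H2-Aa was far above it. These intervals, and all binomial intervals below, cover counting error only.

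The H2-M genes varied less between antigen-presenting classes. H2-DMa was at 483, 371, 400 and 273 CPM in macrophages and at 270, 250, 221 and 225 CPM in microglia, a ratio of means of 1.58. H2-DMb1 was at 617, 356, 487 and 214 CPM in macrophages and at 190, 160, 156 and 152 CPM in microglia. In B cells most β chain UMIs were assigned to the neighbouring paralog H2-DMb2, which encodes another H2-M β chain. Of the UMIs assigned to either β gene, H2-DMb2 made up 92.9%, 84.7%, 80.0% and 74.5% in B cells, from 79, 100, 64 and 35 H2-DMb2 UMIs. In microglia it made up 2.51% to 4.40%, in macrophages 2.58% to 11.1% and in monocytes 1.21% to 4.76%. No source used here says how reads that match both paralogs were assigned, so the split is uncertain.

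Among microglia, the chain genes and Cd74 varied 84.9- to 176-fold between state means, and the H2-M genes 2.08- and 2.47-fold (plot of levels by state). H2-Aa in state 6 was at 6920, 4737, 5552 and 6296 CPM. In state 5 it was at 1548, 996, 909 and 854 CPM, and in state 0, which held the most cells, at 47.4, 14.2, 31.5 and 40.8 CPM. These 3 states did not overlap. The mean in state 6 was 176 times that in state 0 for H2-Aa, 84.9 times for H2-Ab1, 143 times for H2-Eb1 and 91.6 times for Cd74. For Cd74, state 6 was at 14987, 13621, 14215 and 16557 CPM and state 5 at 4356, 3154, 2998 and 2826. States 2, 4, 3 and 1 lay between states 5 and 0 in mean H2-Aa, and from state 2 down to state 0 each overlapped the next.

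State 6 held 45, 9, 29 and 47 cells per library. Its monocyte markers summed to 244 to 745 CPM over 7 genes, while all microglia had 22.4 to 82.3. The same sum was 6017 to 13323 CPM in monocytes, 444 to 744 in T and NK cells and 476 to 731 in B cells. State 6 was thus far below monocytes and not above the lymphocytes, and the sum was not split by gene. The microglia markers of state 6 summed to 7550 to 9786 CPM, and the 10 markers of conventional dendritic cells to 60.1 to 121 CPM, with 6 of them at 0 in all 4 libraries. In state 0 these 10 markers summed to 20.8 to 29.2 CPM and in state 5 to 531 to 730 CPM, most of it Itgax (530 to 728 CPM in state 5 and 48.1 to 118 CPM in state 6). Its mean H2-Aa was 1.62 times that of macrophages and 1.92 times that of B cells. Ciita in state 6 came from 8 UMIs, a pooled level of 7.15 CPM (95% interval 3.09 to 14.1). The pooled level in macrophages was 52.5 CPM (43.6 to 62.6) and in B cells 85.7 CPM (61.8 to 116). State 6 thus reached the H2-Aa level of macrophages and B cells with a Ciita level whose interval lay below theirs. State 5 had 2.89 Ciita CPM (2.20 to 3.73) and state 0 had 0.159 (0.0516 to 0.371). The interval of state 6 lay above that of T and NK cells (0.984 to 2.55), and that of state 0 lay below it. State 5 was above T and NK cells in each library, at 2.78, 2.59, 2.57 and 3.58 CPM against 0.927, 1.27, 1.58 and 2.97, but the pooled intervals overlapped. States 1, 2, 3 and 4 had 0 to 2 Ciita UMIs each, too few to place them.

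H2-DMa was at 393, 433, 225 and 400 CPM in state 6, at 288, 225, 204 and 202 CPM in state 5 and at 244, 263, 231 and 246 CPM in state 0. States 5 and 0 overlapped. H2-DMb1 was at 352, 204, 229 and 296 CPM in state 6, above its 159 to 197 CPM in state 5. The ratio of the highest to the lowest state mean was 2.08 for H2-DMa and 2.47 for H2-DMb1. Over 26 sums of 1 state in 1 library with at least 20 cells, H2-DMa had a Pearson r of 0.350 with the mean of H2-Aa, H2-Ab1, H2-Eb1 and Cd74 on the log2(CPM + 1) scale, and H2-DMb1 had 0.735. These points share libraries and differ in depth, so r is a description.

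**Figure D2:**
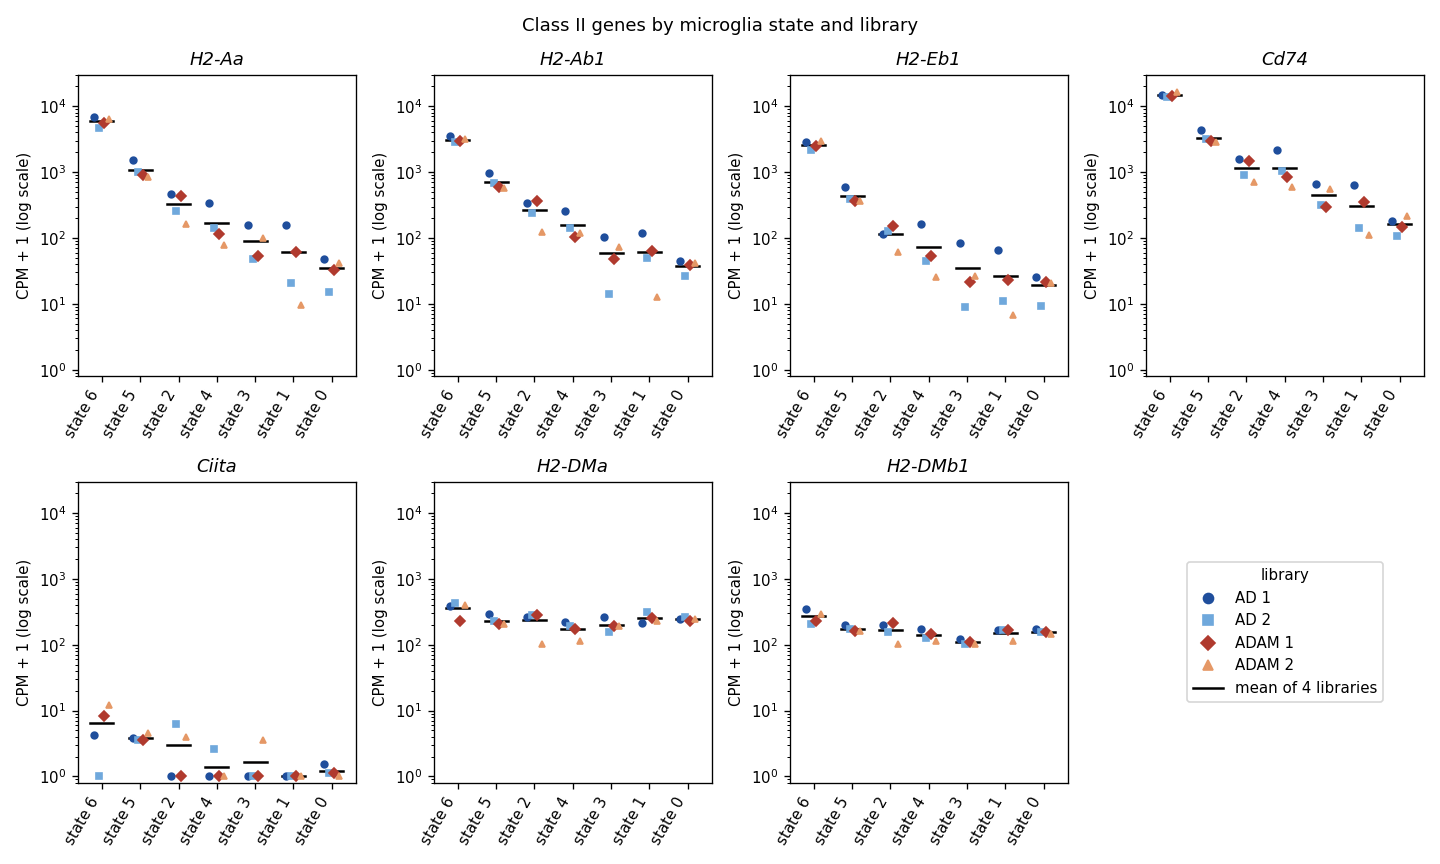
Level of each class II gene (CPM plus 1, log scale) in the 7 microglia states, with 1 point per library and a bar at the mean of the 4 libraries. The chain genes and Cd74 step down from state 6 to state 5 to the other states. H2-DMa and H2-DMb1 vary much less, and both have their highest mean in state 6.

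Most class II transcripts of the microglia came from a minority of cells. State 5 was 37.1%, 23.3%, 27.2% and 37.4% of the microglia and held 71.0%, 89.1%, 68.5% and 59.9% of their H2-Aa UMIs. State 6 was 2.81%, 0.290%, 1.25% and 2.28% of the microglia and held 25.1%, 5.70%, 24.2% and 35.7% of the H2-Aa UMIs. State 0 was 39.9% to 64.6% of the microglia and held 2.05% to 4.19% of the H2-Aa UMIs, but 39.3% to 66.6% of the H2-DMa UMIs. The tenth of microglia with the most chain UMIs (H2-Aa, H2-Ab1 and H2-Eb1 summed) held 76.9%, 89.8%, 89.2% and 83.2% of them. The median microglial cell had 0 chain UMIs in each library.

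The share of cells with any chain UMI was compared after each cell had been thinned to 2000 UMIs, which left out shallower cells. In microglia it was 36.3%, 20.7%, 24.3% and 32.5%, and without thinning 44.5%, 31.5%, 38.4% and 41.2%, at median depths of 4720 to 6170 UMIs. In T and NK cells, used here as the reference for cells that should hold few class II transcripts, it was 4.76%, 2.37%, 8.07% and 3.5%, and without thinning 7.34%, 4.83%, 13.7% and 7.87%, at median depths of 2926 to 3548 UMIs. In state 5 it was 67.4%, 59.5%, 50.5% and 57.3%, and in state 6 it was 96.4% to 100%. In state 0 it was 9.64%, 7.18%, 10.4% and 9.73%. The state 0 interval in ADAM 1, 8.75% to 12.3%, overlapped that of the T and NK cells there, 6.03% to 10.5%, so state 0 could not be told from T and NK cells at this depth in that library. In the other 3 libraries the 2 intervals did not overlap. Whether the UMIs in T and NK cells came from free RNA, doublets or their own expression was not tested.

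H2-DMa gave another picture. After thinning, it was found in 38.1%, 39.2%, 33.3% and 37.1% of state 0 cells and in 38.8%, 33.2%, 29.6% and 28.6% of state 5 cells, against 2.90% to 7.29% of T and NK cells. The cells of state 0, with few chain transcripts, thus held H2-M transcripts about as often as state 5. The chain genes H2-Aa and H2-Ab1 went together within cells. Without thinning, 84.6% to 93.4% of state 5 cells with an H2-Aa UMI also had H2-Ab1, against 32.4% to 37.6% of the other state 5 cells. After thinning these shares were 71.1% to 80.2% and 15.4% to 25.4%. Cd74 was found in 97.8% to 98.8% of the cells with H2-Aa without thinning, and its share in the other cells was not taken.

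**Figure D3:**
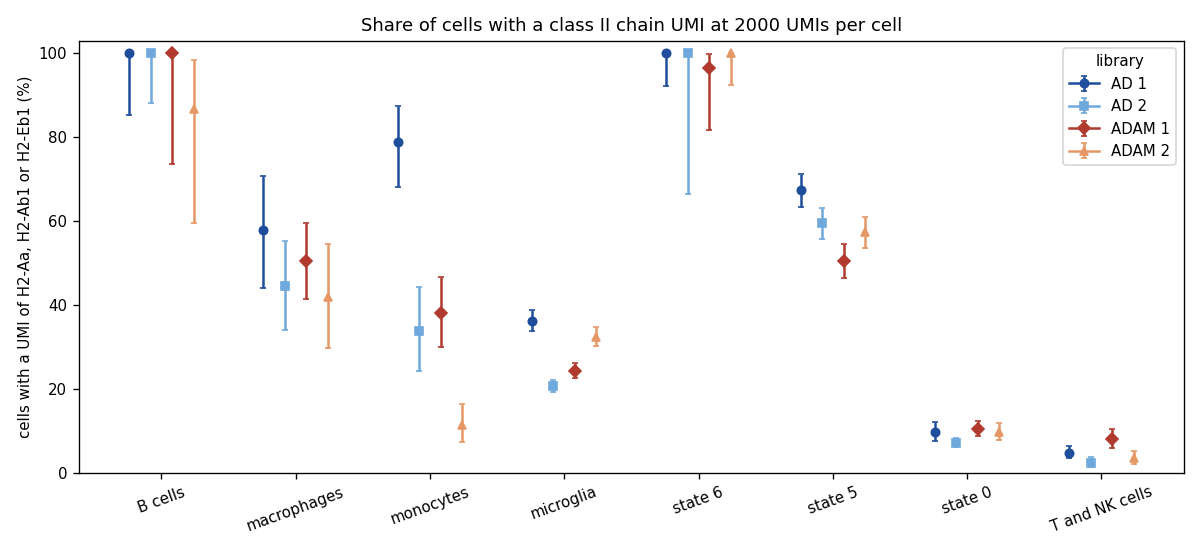
Share of cells (%) with at least 1 UMI of H2-Aa, H2-Ab1 or H2-Eb1 after thinning to 2000 UMIs per cell, by set and library, with exact binomial 95% intervals. State 6 and B cells are near 100%, state 5 lies between 50.5% and 67.4%, and state 0 lies close to the T and NK cells, whose share is highest in ADAM 1.

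The design asks whether loss of Axl and Mertk changed these levels. Counts were summed per library and tested with edgeR over all genes. In microglia 0 of 7 members passed an adjusted p of 0.05, where 0.0419% of all 11924 genes did. DESeq2 and limma-voom also called 0, and 0 were under 0.05 unadjusted in edgeR, where 2.35% of all genes were. H2-DMa and H2-DMb1, 2 of the 6 members with a mean of at least 10 CPM, were lower in both ADAM libraries than in both AD libraries, as were 20.6% of all such genes. No member was higher in both, where 6.97% of genes were. The groups overlapped for H2-Aa, and AD 1 had both the highest H2-Aa and the most state 6 cells per microglia. The fitted log2 difference, ADAM minus AD, was -0.30 ± 0.75 (SE) for H2-Aa, -0.15 ± 0.61 for Cd74 and -0.17 ± 0.12 for H2-DMa, with adjusted p rounding to 1 in edgeR for each. The part of state shares in the spread of the whole microglia was not tested. With 2 libraries a group, an exact permutation test cannot go below p = 0.333. The edgeR p-values and SE rest on the spread between pools of cortices, moderated by the spread of the other genes, so they are not the spread of each gene alone.

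In macrophages 0 of 7 members passed, where 0.0154% of all genes did. The groups overlapped for all 7 members: 0 were lower in both ADAM libraries (15.3% of genes with a mean of at least 10 CPM) and 0 were higher in both (14.5%). In T and NK cells 0 of 6 tested members passed (0.241% of all genes), in proliferating cells 0 of 7 (0.0842%), in state 2 0 of 6 (0.0635%) and in state 3 0 of 5 (0.313%). At an unadjusted p of 0.05, edgeR counted 3 members in T and NK cells (5.20% of all genes) and 1 in proliferating cells (8.73%). It counted 0 in macrophages (2.21%), state 2 (3.05%) and state 3 (4.95%). DESeq2 and limma-voom called 0 members in each of these sets. The fitted log2 difference was above 0 for all 6 members in T and NK cells (median 0.97) and for all 7 in proliferating cells (median 1.44). It was below 0 for all 7 in macrophages (median -0.17), all 6 in state 2 (median -0.215) and 4 of 5 in state 3 (median -0.06). Over all genes tested the median was -0.01 in T and NK cells and 0.03 in proliferating cells.

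Within state 5, all members except Ciita were lower in both ADAM libraries than in both AD libraries. H2-Ab1 was at 954 and 694 CPM in AD and at 591 and 573 CPM in ADAM, a log2 difference of -0.51 ± 0.14 (SE), with an edgeR adjusted p of 0.43. H2-Aa had a log2 difference of -0.54 ± 0.20, H2-Eb1 of -0.44 ± 0.19, Cd74 of -0.37 ± 0.15, H2-DMa of -0.34 ± 0.13 and H2-DMb1 of -0.22 ± 0.11. None of the 7 tested members passed the adjusted threshold, where 0.153% of all genes did. In edgeR 4 of the 7 were under 0.05 unadjusted, where 5.30% of all genes were. Of 7104 genes with a mean of at least 10 CPM in state 5, 15.8% were also lower in both ADAM libraries than in both AD libraries, and 17.6% were higher in both. The median log2 difference was -0.38 over the 7 members and 0.00 over all genes tested. DESeq2 and limma-voom called 0 members, and edgeR without a filter on low counts called 3. With each library left out in turn, H2-Ab1 ranged from -0.73 to -0.25. The thinned share of state 5 cells with a chain UMI was 50.5% and 57.3% in ADAM against 67.4% and 59.5% in AD. AD 2, with 708 cells, and ADAM 2, with 754 cells, were close in this share. The thinned median was 2 chain UMIs per cell in AD 1 and 1 in AD 2, ADAM 1 and ADAM 2. The sum of the 10 markers of conventional dendritic cells moved the same way without overlap, at 730 and 590 CPM in AD and 549 and 531 CPM in ADAM. Most of this sum was Itgax, as given above, so it does not show a move of the other markers. The part of Itgax or of dendritic cell RNA in the result was not tested.

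State 0 leaned the other way. H2-Aa was at 47.4 and 14.2 CPM in AD and at 31.5 and 40.8 CPM in ADAM, and the groups overlapped. The log2 difference was 0.50 ± 0.82 for H2-Aa, 0.58 ± 0.64 for H2-Eb1, 0.45 ± 0.37 for Cd74 and -0.01 ± 0.11 for H2-DMa. In edgeR 0 of 6 tested members passed (0.101% of all genes) and 0 were under 0.05 unadjusted (4.22%). DESeq2 and limma-voom called 0. Of the 6 members, H2-DMb1 alone was lower in both ADAM libraries, where 30.1% of genes were, and none was higher in both, where 7.69% were. The low value was that of AD 2, and without it H2-Aa was at -0.29. AD 2 also had the lowest H2-Aa in T and NK cells, 4.75 CPM, while the other libraries had 10.2 to 20.5. The part of stray class II RNA in the state 0 difference was not tested.

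State 4 had 23 to 62 cells per library. Cd74 there was at 2150 and 1034 CPM in AD and at 856 and 588 CPM in ADAM, a log2 difference of -1.13 ± 0.32 with an edgeR adjusted p of 0.85. H2-Aa had -1.15 ± 0.38, with 333 and 139 CPM in AD and 115 and 78.4 CPM in ADAM. In state 4, 0 of 6 tested members passed in edgeR (0.127% of all genes) and 3 were under 0.05 unadjusted (3.35% of all genes). DESeq2 and limma-voom called 0. H2-Aa, H2-Ab1, Cd74 and H2-DMa, 4 of the 6, were lower in both ADAM libraries than in both AD libraries, against 14.6% of genes (17.2% were higher in both). With each library left out in turn, Cd74 ranged from -1.55 to -0.57. The dendritic cell markers in state 4 were at 206 and 193 CPM in AD and 173 and 102.96 CPM in ADAM, with 5 of 10 at 0, and their part was not tested.

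The test of whether the genotype difference itself differed between states 5 and 0 gave calls. For H2-Ab1 the difference in state 5 minus that in state 0 was -0.81 ± 0.14 (SE, log2; edgeR adjusted p = 1.1e-05), for H2-Eb1 -1.04 ± 0.18 (adjusted p = 0.00015) and for Cd74 -0.81 ± 0.15 (adjusted p = 0.00017). Thus 3 of 7 members passed, where 1.02% of all 11132 genes did. H2-Aa had a difference of -1.07 ± 0.47 that did not pass (edgeR adjusted p = 0.69), and H2-DMa had -0.31 ± 0.12 (adjusted p = 0.26). The SE and p-values of this test also borrow spread from other genes. The ratio of state 5 to state 0 shows the same data by library. For H2-Ab1 it was 21.6 and 27.6 in AD and 15.8 and 14.2 in ADAM. For Cd74 it was 24.3 and 29.6 in AD and 20.3 and 13.2 in ADAM, and for H2-Eb1 24.0 and 47.2 in AD and 18.1 and 18.0 in ADAM. Both ADAM ratios lay below both AD ratios for these 3 genes and for H2-Aa, whose ratios were 32.6 and 70.2 in AD and 28.9 and 21.0 in ADAM. These were 4 of the 6 members with a mean of at least 10 CPM in both states, where 11.5% of 6813 such genes had lower ratios in both ADAM libraries. No member had higher ratios in both, where 31% of genes did.

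Each call was lost when 1 library was left out, and the differences kept their sign. Without AD 2, H2-Ab1 was at -0.65 (edgeR adjusted p = 0.086) and H2-Eb1 at -0.54 (adjusted p = 0.36), and without ADAM 2, Cd74 was at -0.48 (adjusted p = 0.52). Over all libraries left out in turn, H2-Ab1 ranged from -0.93 to -0.65, H2-Eb1 from -1.44 to -0.54 and Cd74 from -1.15 to -0.48. In 3 of 8 alternatives H2-Aa did not pass, as in the main fit, and in the others it passed with its sign kept. These others included the fits without AD 1, without ADAM 1 and without ADAM 2, and not all of them left out a library. With all cells thinned to 2000 UMIs, H2-Eb1 was at -0.84 and did not pass in edgeR (adjusted p = 0.18), and with limma-voom Cd74 was at -0.81 and did not (adjusted p = 0.26). When the level in T and NK cells of the same library was taken off both states, the H2-Eb1 ratio became 30.7 and 81.2 in AD and 49.0 and 21.9 in ADAM, and the Cd74 ratio 30.0 and 34.4 in AD and 35.7 and 16.04 in ADAM, so the groups overlapped. H2-Aa overlapped too, at 41.3 and 105 in AD and 81.0 and 28.1 in ADAM. For H2-Ab1 it became 28.5 and 33.9 in AD and 24.3 and 18.2 in ADAM, without overlap.

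**Figure D4:**
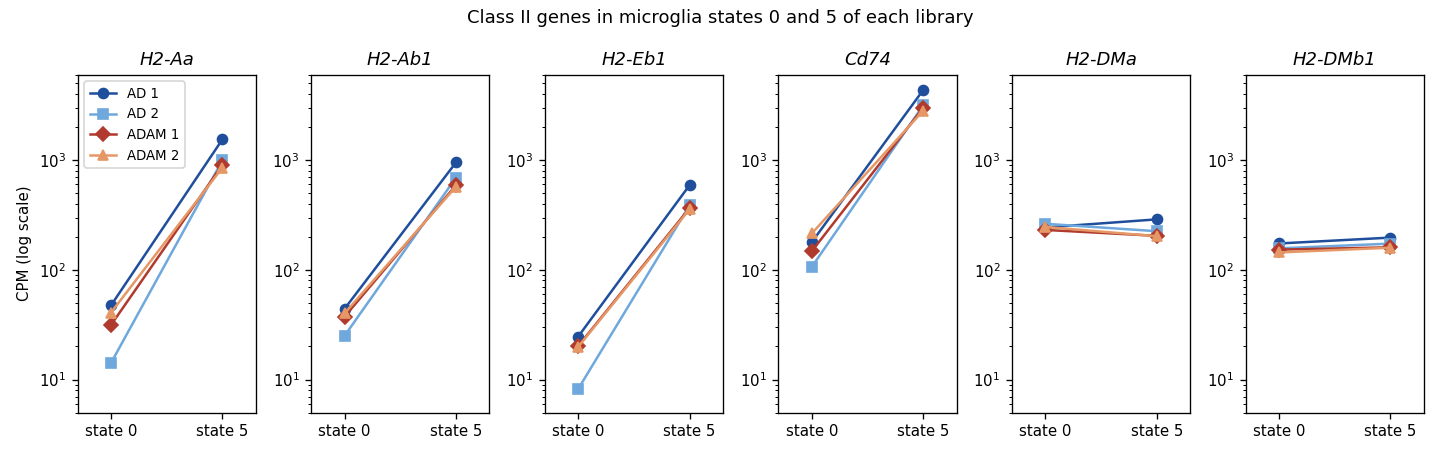
Level (CPM, log scale) of 6 class II genes in states 0 and 5, joined by a line for each library. AD 2 has the lowest state 0 value for H2-Aa, H2-Ab1, H2-Eb1 and Cd74, both ADAM libraries have the lowest state 5 values, and the H2-DMa and H2-DMb1 lines are nearly flat.

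In the monocyte class all 7 members were lower in both ADAM libraries than in both AD libraries. Cd74 was at 8776 and 3521 CPM in AD and at 2932 and 496 CPM in ADAM. H2-DMa was at 527 and 299 CPM in AD and at 143 and 74.1 CPM in ADAM. AD 1 was highest and ADAM 2 lowest for each member. The log2 difference was -1.88 ± 1.20 (SE) for Cd74, -2.11 ± 1.39 for H2-Aa, -1.93 ± 0.37 for H2-DMa (edgeR adjusted p = 0.15), -1.98 ± 0.46 for H2-DMb1 (adjusted p = 0.28) and -2.36 ± 0.60 for Ciita (adjusted p = 0.30). None of the 7 passed in edgeR, where 0.155% of all 6460 genes did, and 3 were under 0.05 unadjusted, where 8.51% of all genes were. Of 6922 genes with a mean of at least 10 CPM, 21.3% were lower in both ADAM libraries and 14.3% higher in both. DESeq2 called 2 members, limma-voom 0 and edgeR without a filter 3. With each library left out in turn, H2-DMa ranged from -2.33 to -1.43.

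The make-up of the class moved with these values. The 6 neutrophil markers summed to 184, 2153, 4243 and 70534 CPM, and the 7 monocyte markers to 13323, 11960, 6017 and 11242 CPM. The 10 markers of conventional dendritic cells summed to 184, 108, 61.9 and 36.1 CPM, with 4 of them at 0 in all libraries. The thinned share of monocytes with a chain UMI was 78.9%, 33.7%, 38.1% and 11.4%, and the groups overlapped. In such sums fewer cells with class II and less RNA per cell cannot be told apart, and the part of neutrophil or dendritic cell RNA was not tested. Against microglia, the genotype difference of H2-DMa in monocytes minus that in microglia was -1.65 ± 0.30 (log2; edgeR adjusted p = 0.039). It was the 1 member of 7 that passed, where 0.394% of all genes did, and it did not pass in edgeR without AD 1 (adjusted p = 0.125) or with limma-voom (adjusted p = 0.16). With each library left out in turn, this H2-DMa value ranged from -2.11 to -1.29. Leaving out a library could also add calls for other members in this comparison. Between macrophages and microglia 0 of 7 passed (0.0438% of all genes), with 0 under 0.05 unadjusted in edgeR.

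**Figure D5:**
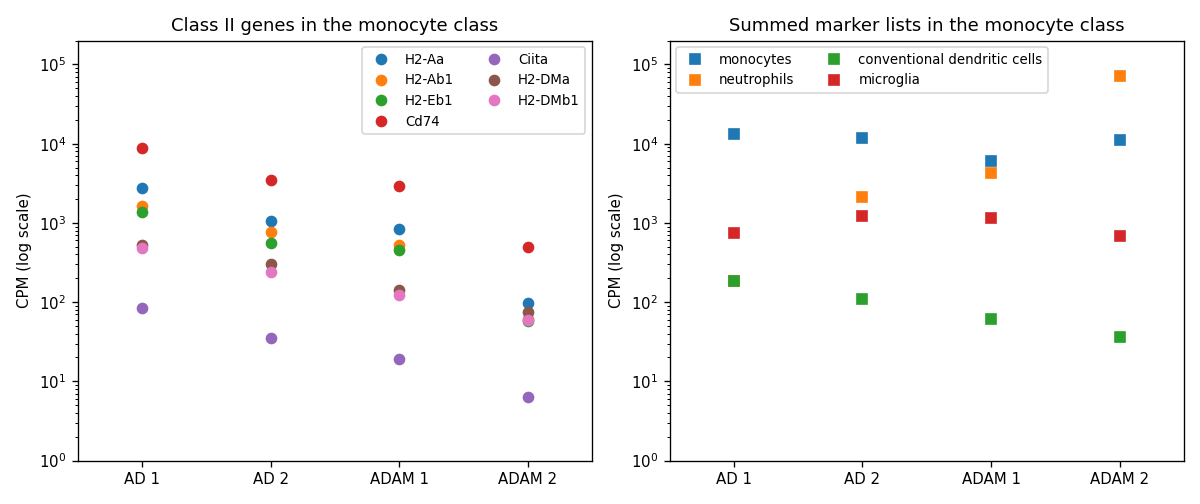
Left, CPM (log scale) of the 7 class II genes in the monocyte class of each library. Right, CPM (log scale) of 4 summed marker lists in the same cells, where the neutrophil markers go from 184 CPM in AD 1 to 70534 CPM in ADAM 2 while the class II genes go down.

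Other genes of the pathway were followed in lists of regulators, proteases and T cell partners. In microglia 0 of 40 tested genes in 7 lists passed in edgeR, with 0 under 0.05 unadjusted. In state 5, 0 of 35 passed in edgeR and Ctsd alone was under 0.05 unadjusted, where 5.30% of all genes were. Among regulators of class II transcription, 0 of 10 passed: Irf8 had a mean of 456 CPM in microglia and a log2 difference of 0.04 ± 0.13 (SE), Spi1, which encodes PU.1, 321 CPM and -0.09 ± 0.14, and Creb1 52.1 CPM and -0.16 ± 0.11. Among genes that carry interferon gamma signals to Ciita, 0 of 7 tested passed, with Ifngr1 at 439 CPM and -0.02 ± 0.14. Among endosomal proteases and their inhibitor cystatin C, 0 of 7 passed: Ctss, which trims the invariant chain, was at 7198 CPM with 0.14 ± 0.13, and Ctsd at 10609 CPM with -0.11 ± 0.18. The chains H2-Oa and H2-Ob, which form an inhibitor of H2-M, were at 52.5 and 37.3 CPM with log2 differences of 0.20 ± 0.13 and -0.13 ± 0.13. Of the costimulatory genes 0 of 6 tested passed, with Cd86 at 168 CPM and 0.14 ± 0.11. March1, a ubiquitin ligase that removes class II from the surface, was at 86.4 CPM with 0.10 ± 0.16. On the T cell side 0 of 4 tested passed, and Lag3, an inhibitory class II receptor, was at 345 CPM in microglia with 0.29 ± 0.15. Over the 10 sets tested, 1 gene of these lists passed. Ctsl, a cysteine protease, was at 45.4 and 51.6 CPM in the T and NK cells of AD and at 117 and 89.6 CPM in ADAM, a log2 difference of 1.10 ± 0.16 (edgeR adjusted p = 0.0086). The 8 microglia markers in those T and NK cells summed to 326 and 336 CPM in AD and to 532 and 395 CPM in ADAM, and their part in the Ctsl difference was not tested.

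The genes most like the class II pattern were named by Pearson r with the mean log2(CPM + 1) of H2-Aa, H2-Ab1, H2-Eb1 and Cd74. Over 27 sums of 1 class in 1 library and 8141 genes, they were Snx2 (r = 0.878), Blvrb, Snx8, Scpep1, Ankle2, Slc15a4, Tpst1, P2rx4, Pkib and Arhgap17 (r = 0.829), and Ciita had 0.839. Over the 26 state sums and 7484 genes, they were Crlf2 (r = 0.941), Ank, Tmem176b, Cd200r4, Hif1a, Plp2, Wfdc17, Tmed3, Fuca1 and Cd28 (r = 0.889), and Ciita had 0.749. The 2 lists of 10 shared no gene, and r is a description over points that share libraries.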

How the data were processed

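The deposited table holds raw UMI counts per gene and cell as the authors made them, with the authors' cell classes, microglia states and doublet marks, per the file headers. Per the submitters' processing notes, the build was mm10 and the tools included Seurat 3.2.1.9002 and Cell Ranger 3.1.0. The lowest total per cell was 500 UMIs. Cells the authors marked as doublets were left out. No further cells were removed. The members and the gene lists were chosen with earlier results of these data known. Members are named in every set, and other pathway genes only where they passed or were among the 3 highest of their list in microglia.

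Counts were summed per library and set of cells, where each library had at least 20 cells. Printed CPM values use the plain library sum, without TMM scaling. Genotypes were compared with edgeR 4.0.16 (quasi-likelihood test, TMM scaling, filterByExpr with a minimum count of 10) in R 4.3.3 over all genes, with Benjamini-Hochberg adjustment and a threshold of 0.05. Differences between sets were tested as an interaction with the library as a block. Each SE was taken from the log2 difference and the F statistic of its edgeR test. Shares of cells carry exact 95% binomial intervals after thinning to 2000 UMIs. Scripts were tested on simulated counts with 200 changed genes. Alternatives were DESeq2 1.42.0, limma-voom (limma 3.58.1), RLE scaling, no filter, thinning, a replicate block, and leaving out each library. Python 3.11.15, numpy 2.4.6, scipy 1.17.1, pandas 2.3.3 and matplotlib 3.10.9 were used for the rest.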

Additional observations from a re-analysis of the deposited data

Results flagged for a closer look

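The genotype difference differed between sets of cells for 4 gene and set pairs, each by the edgeR interaction test over all genes. In state 5 minus state 0 microglia, the difference (ADAM minus AD, log2) was -0.81 for H2-Ab1, -1.04 for H2-Eb1 and -0.81 for Cd74. In monocytes minus microglia it was -1.65 for H2-DMa. The calls for H2-Ab1 and H2-Eb1 were lost without AD 2, that for Cd74 without ADAM 2 and that for H2-DMa without AD 1. Groups of 2 libraries are too small for a check of single libraries that stand apart.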

How the results depend on the processing

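Over 407 alternatives to the members' values, Ciita left out, 350 kept direction and side of the threshold, 35 came to pass, 7 no longer passed and 15 changed sign. These cover microglia, monocytes, states 0, 4 and 5, and the interactions of state 5 with state 0 and of monocytes with microglia. Other sets and the crossed pairing named below are not among them. With a replicate block, H2-Eb1 in microglia was at 0.021 (log2) and 1 member was called in T and NK cells. The numbers were not shown to pair the libraries (correlation of deviations -0.19 over 7560 microglial genes). The block moved the genes called from 5 to 0 in microglia, 10 to 3 in monocytes, 11 to 35 in state 0, 23 to 90 in T and NK cells and 6 to 80 in proliferating cells. The crossed pairing, tried after the data were seen, called 8, 24, 8, 74 and 172. DESeq2 called 2 members in monocytes. With no filter, 3 members were called in monocytes, 1 in proliferating cells, 1 in state 4, 3 in state 5 and 2 for monocytes against microglia, where thinning gave 2 and limma-voom 0 (both chosen after the data were seen). H2-DMa was at 0.007 in state 0 with limma-voom and at 0.018 in state 4 with thinning. The mean share of ADAM microglia with a chain UMI, 28.4%, was 21.3% at 1000 UMIs and 39.8% unthinned. Over the alternatives that kept all libraries, the count of all genes called also moved. It ranged from 0 to 276 in monocytes, 0 to 340 in proliferating cells, 1 to 16 in state 4 and 12 to 112 in state 5. For monocytes against microglia it ranged from 0 to 195. Each fit with a library left out had 1 library in a group, and member calls were gained as well as lost in such fits. Gains were seen in monocytes, proliferating cells, states 4 and 5, and monocytes against microglia. Leaving out 1 library gave -3.48 to -1.05 for Cd74 in monocytes, -1.55 to -0.57 in state 4 and -0.60 to -0.11 in state 5. In microglia it gave -0.92 to 0.77 for H2-Aa, -0.83 to 0.58 for H2-Ab1, -0.79 to 0.89 for H2-Eb1, -0.69 to 0.70 for Cd74 and -0.265 to 0.014 for H2-DMb1. In state 0 it gave -0.29 to 1.40 for H2-Aa, -0.077 to 0.69 for H2-Ab1, -0.19 to 1.34 for H2-Eb1 and -0.084 to 0.082 for H2-DMa. Other than by fewer samples, cells or genes, the cause was not tested. Thinning was not run for state 2, where too few cells were left.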
